A study of Mus musculus with 68 samples.

Results

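The insulin-like growth factor system was examined in single cells of the developing mouse cortex through 9 genes: the ligand gene Igf2, the receptor genes Igf1r, Insr and Igf2r, the adaptor genes Irs1 and Irs2, and the genes of the secreted binding proteins, Igfbp2, Igfbp3 and Igfbp5. The members were chosen by name. The array annotation gives them 19 probe sets of their own out of 45101, and 1 further probe set, shared by Airn and Igf2r, was not used because it names no single gene. Of 18194 genes with a probe set of their own, 10789 had a probe set at or over the detection level explained below in at least 1 cell, and 8 of the 9 members were among them, all but Irs2.

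Each of the 68 arrays carries the amplified cDNA of 1 cell from CD1 mice. In the E11 group there are 30 cells of the dorso-lateral cerebral wall and in the E16 group 28 cells of the ventricular and subventricular zones (VZ/SVZ). The other groups hold apical progenitors (APs): 3 from the E12 wall, 3 from neurospheres grown for 3 days from E11 cells in medium with FGF2 and EGF, and 4 NICD/p18 APs taken from E14 VZ/SVZ 3 days after electroporation at E11. The last were electroporated with pCAG-NICD, which drives the intracellular domain of Notch, and pEF-p18, which drives a cyclin-dependent kinase inhibitor (Cdkn2c). Only cells reached by the electroporation carry the plasmids, and by the study's methods cells positive for a co-electroporated EGFP plasmid were picked. The study also chose the arrayed E11, E16 and E12 cells by qPCR of marker genes, those of E11 and E16 as progenitors and those of E12 as APs. No embryo, litter or culture is named for any cell, so each group was taken as 1 sample, SDs are between cells, and no significance test was made.

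Apical progenitors line the ventricle and renew themselves, and intermediate progenitors (IPs) are their daughters that divide away from the surface into neurons. IGF1, IGF2 and insulin signal through the receptor kinases IGF1R and INSR, whose adaptors IRS1 and IRS2 recruit PI3 kinase and so feed the AKT and mTOR pathway. IGF2R carries IGF2 to lysosomes rather than signalling as a kinase, and the binding proteins hold IGFs outside the cell and can hinder or prolong their action. In the embryonic brain IGF2 reaches the apical surface of progenitors through the cerebrospinal fluid, and IGF signalling is known for its part in progenitor growth and division.

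The E11 and E16 cells carry no type in their labels. They were sorted by clustering each stage on 15 marker genes each of APs, IPs and neurons, which gave 23 AP-like, 3 IP-like and 3 neuron-like cells at E11 and 17 AP-like, 9 IP-like and 2 neuron-like cells at E16, with 1 E11 cell left out. The E11 neuron-like cells carried IP markers about as strongly as neuron markers, with medians of 9 and 8 of 15 over the level. AP markers over the level had a median of 6 and a maximum of 10 of 15 in E16 IP-like cells. In E11 IP-like cells these were 3 and 4, and in E16 AP-like cells 10 and 12. The part of this unlike mix in the differences of IP-like cells was not tested. IP-like cells held Eomes, Gadd45g and Insm1 among the genes furthest above the other cells of their stage, and AP-like cells held Ttyh1. All of these were among the markers used for the clustering, so their place there does not check the classes. Among markers of other cell types over the level, vessel genes appeared in 1 of 67 cells, mesenchyme and pericyte genes in 6, blood genes in 1, microglial genes in 1 and choroid plexus genes in 0. The trimmed mean of the deposited signals ran from 47.5 to 297.5 over the 58 E11 and E16 arrays and was 500.0 in the 10 others, so that difference in processing cannot be told apart from the conditions.

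Signals were quantile normalized over the 68 arrays and are given as log2 values. As a detection level served the median signal of the phe RNA, spiked into each lysate at 20 copies per cell, which was 842 or 9.72 on the log2 scale. This 20-copy level is a threshold of signal and not a copy number for another probe set. A difference between group means is called here when it reached 1 on the log2 scale and the higher mean was at or over the level.

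Igfbp2 and Igfbp5 are neighbours on chromosome 1 with 0 annotated genes between them in RefSeq (GRCm38.p6), and they lie on opposite strands. Because these neighbours had different patterns over the cells, and because Irs1 was the adaptor detected most often, the RefSeq windows from 250 bases before to 50 bases after their first listed start sites are shown. Capitals mark matches to GGGCGG (the GC box), TATAAA or TATTTA (spellings of the TATA element) or TGGGAA (the core of the RBPJ site, RBPJ being the DNA-binding partner of NICD), searched on both strands with overlaps counted.
Igfbp2, chr1:72824230-72824529, plus strand: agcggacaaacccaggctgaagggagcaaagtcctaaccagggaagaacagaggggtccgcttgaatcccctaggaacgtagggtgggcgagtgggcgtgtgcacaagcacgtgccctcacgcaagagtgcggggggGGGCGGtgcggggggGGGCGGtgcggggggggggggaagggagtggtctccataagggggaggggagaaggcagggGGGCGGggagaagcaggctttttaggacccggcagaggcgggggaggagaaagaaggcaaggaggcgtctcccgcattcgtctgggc
Igfbp5, chr1:72874816-72875115, minus strand: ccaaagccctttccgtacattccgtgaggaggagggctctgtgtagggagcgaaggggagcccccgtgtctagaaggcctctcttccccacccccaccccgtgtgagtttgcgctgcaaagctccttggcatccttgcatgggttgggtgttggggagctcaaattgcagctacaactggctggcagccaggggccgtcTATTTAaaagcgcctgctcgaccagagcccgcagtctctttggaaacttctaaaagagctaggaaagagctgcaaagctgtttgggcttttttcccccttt
Irs1, chr1:82291390-82291689, minus strand: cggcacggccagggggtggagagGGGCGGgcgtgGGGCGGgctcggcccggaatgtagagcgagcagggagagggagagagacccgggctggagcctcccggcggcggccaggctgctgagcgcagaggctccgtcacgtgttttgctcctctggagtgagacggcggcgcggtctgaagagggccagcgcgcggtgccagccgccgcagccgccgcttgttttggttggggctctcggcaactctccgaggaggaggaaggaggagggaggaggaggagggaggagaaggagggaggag
The Igfbp2 window held 3 GC boxes and the Irs1 window 2, while the Igfbp5 window held 0 GC boxes and 1 TATTTA. Of all 32851 RefSeq mouse windows of this length, 35.7% held a GC box, 13.7% TATTTA, 13.6% TATAAA and 25.6% TGGGAA. RefSeq windows were found for 8 of the 9 members, 12 windows in all. The RBPJ core was in none of the 3 windows shown and in 3 of the 12, those of Igf1r (1 match) and of 2 of the 4 Igf2 starts (1 and 2 matches). A match or its absence describes these letters in these windows only.

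**Figure D1:**
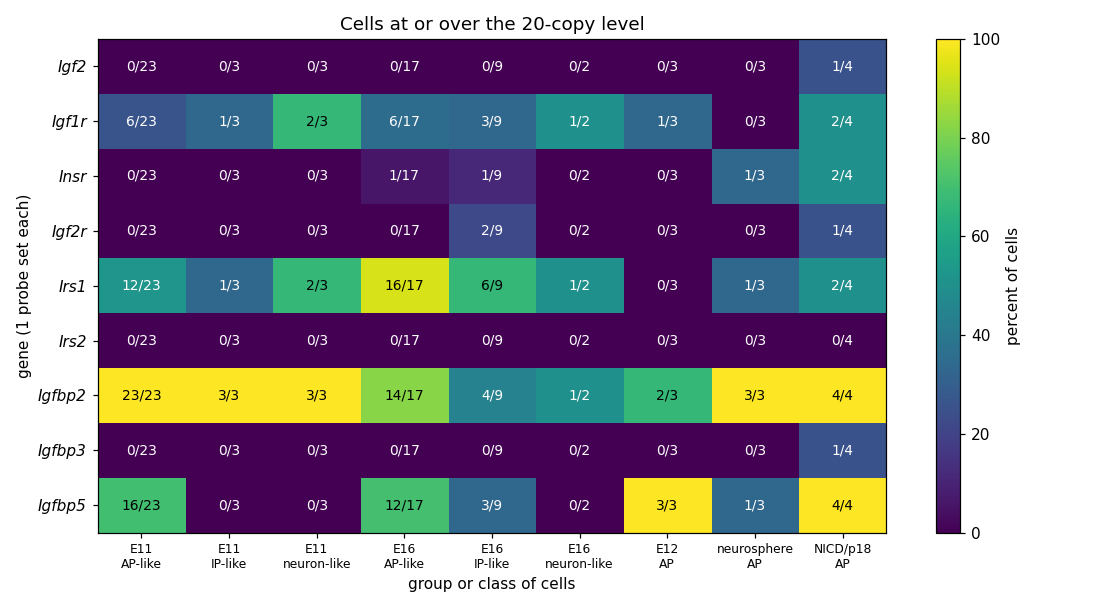
Percent of cells at or over the 20-copy level for each member gene (rows, 1 probe set each) in each group or class (columns), with the number of cells over the level and the number in the class printed in each field. Igfbp2 fills the E11 columns and Igfbp5 is at 0 in the E11 IP-like, E11 neuron-like and E16 neuron-like columns, while Igf2, Igf2r, Insr, Irs2 and Igfbp3 are at or near 0 in most columns.

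The ligand was hardly detected. Igf2, the imprinted fetal growth factor, was at or over the level in 1 of 67 cells with probe set 1448152_at and in 0 with 1415931_at. The 1 cell was NICD/p18 AP replicate 2, at 10.04 on the log2 scale, and the other 3 NICD/p18 APs had 6.93, 2.98 and 7.33. In the 57 classed cells of E11 and E16 the highest value of either Igf2 probe set was 8.45, under the level. The other ligand genes Igf1, Ins1 and Ins2 had no probe set past the filter.

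Among the receptors, Igf1r, the main kinase for both IGFs, was over the level in 22 of 67 cells with probe set 1452982_at. In E11 AP-like cells the log2 signal had a lowest value of 1.96, a median of 8.07 and a highest of 11.30, with 6 of 23 cells over the level. In E16 AP-like cells these were 4.42, 8.60 and 11.44, with 6 of 17 over. The ranges overlapped, with 4 E11 cells below the lowest E16 cell, and the shares of 26.1% (exact 95% interval 10.2 to 48.4%) and 35.3% (14.2 to 61.7%) have intervals that overlap widely. These intervals cover counting error only. E16 IP-like cells ran from 6.28 through a median of 8.79 to 11.44, with 3 of 9 over the level. The 3 E11 IP-like cells had 1.88, 5.33 and 10.76, the 3 E11 neuron-like cells 10.99, 10.06 and 4.00, and the 2 E16 neuron-like cells 5.15 and 10.86, so that each of these small classes held cells on both sides of the level.

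The mean log2 levels of Igf1r ran, from the highest, NICD/p18 APs (9.80), E16 IP-like (9.02), E16 AP-like (8.54), E11 neuron-like (8.35), E12 APs (8.19), E16 neuron-like (8.0), neurosphere APs (7.67), E11 AP-like (7.52) and E11 IP-like cells (5.99). No neighbours in this order differed by more than the larger of their SDs, which ran from 1.78 to 4.48. The other 4 Igf1r probe sets were over the level in 9, 4, 1 and 0 cells. With 1428967_at the 2 E16 neuron-like cells, at 9.79 and 10.57, were both over the level, whereas 1452982_at put 1 of the 2 over it, so the probe sets of this gene did not rank the cells alike.

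Insr, the insulin receptor, was over the level in 5 of 67 cells with 1434446_at and in 0 with each of its other 2 probe sets. The highest value, 10.75, was in an E16 IP-like cell, and 2 of the 4 NICD/p18 APs were over the level at 10.28 and 9.73. Igf2r, the clearance receptor for IGF2, was over the level in 3 cells with 1424111_at, among them 2 of 9 E16 IP-like cells, whose highest value was 10.39, and in 0 with 1424112_at. No class of E11 or E16 cells had a mean of either gene over the level.

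Irs1, the adaptor that couples the receptors to PI3 kinase, was detected in 41 of 67 cells by its only probe set. In E11 AP-like cells it ran from 0.88 through a median of 10.15 to 12.96 on the log2 scale, with 12 of 23 cells over the level. In E16 AP-like cells it ran from 6.95 through 11.02 to 12.43, with 16 of 17 over. At E16, then, nearly every AP-like cell was over the level, while at E11 the cells lay on both sides of it. With each cell held against the phe signal of its own array, Irs1 was at or over it in 14 of 17 E16 and 11 of 23 E11 AP-like cells. The share over the level was 52.2% (exact 95% interval 30.6 to 73.2%) at E11 and 94.1% (71.3 to 99.9%) at E16. The 12 E11 AP-like cells over the level averaged 11.52 ± 0.86 and the 16 E16 cells 11.27 ± 0.53, so among cells over the level the E16 values were not higher.

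In IP-like cells Irs1 was lower on average. The 3 E11 IP-like cells had 2.09, 0.25 and 11.04, and the E16 IP-like cells ran from 3.44 through a median of 10.62 to 11.96 with 6 of 9 over the level. The 3 E11 neuron-like cells had 6.13, 12.57 and 10.85, and the 2 E16 neuron-like cells 12.61 and 2.09. The mean levels ran E16 AP-like (11.01), E11 neuron-like (9.85), NICD/p18 APs (9.29), E11 AP-like (9.13), E16 IP-like (8.89), E12 APs (8.38), E16 neuron-like (7.35), neurosphere APs (5.78) and E11 IP-like cells (4.46), and no neighbours in it differed by more than the larger of their SDs. Irs2, the related adaptor, was over the level in 0 of 67 cells with its only probe set, with a highest value of 9.17.

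**Figure D2:**
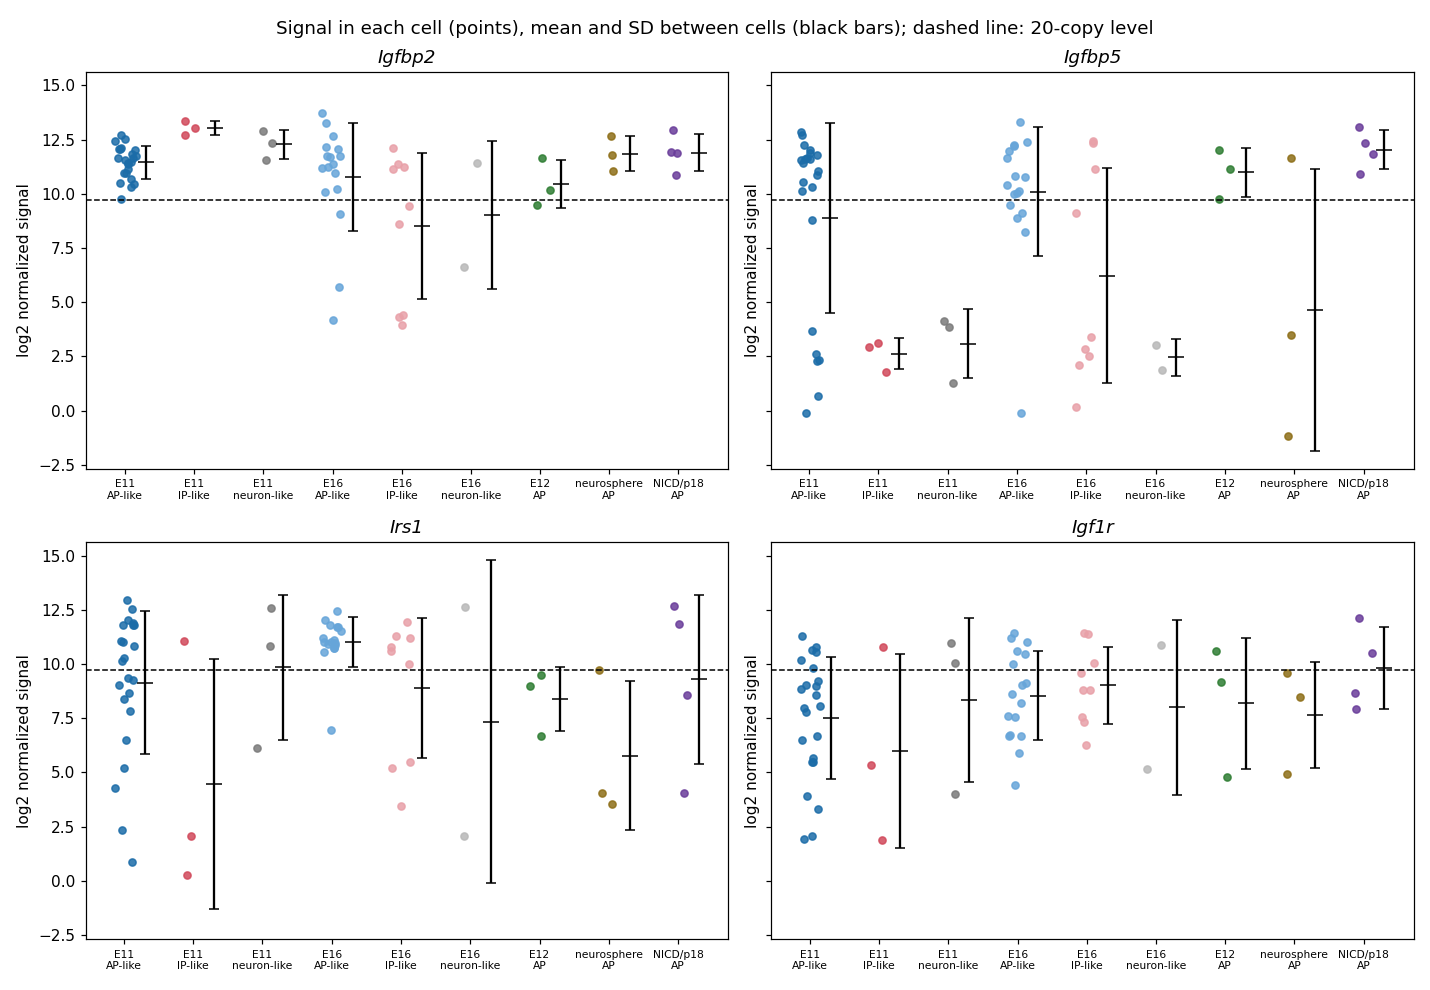
Log2 normalized signal of Igfbp2, Igfbp5, Irs1 and Igf1r (vertical axes) in each cell (points) by group or class (horizontal axes), with the mean and the SD between cells in black and the 20-copy level of 9.72 as a dashed line. Igfbp2 is over the level in all 29 E11 cells shown, Igfbp5 splits the E11 AP-like cells into 16 over and 7 under the level, and Irs1 is over it in 16 of 17 E16 AP-like cells.

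Igfbp2, which encodes a secreted IGF-binding protein, was over the level in 57 of 67 cells. At E11 it was over the level in all 23 AP-like, all 3 IP-like and all 3 neuron-like cells. With each cell held against the phe signal of its own array, Igfbp2 was at or over it in 20 of the 23, 3 of 3 and 3 of 3. AP-like cells ran from 9.75 through a median of 11.57 to 12.71, the IP-like cells had 13.35, 12.71 and 13.03, and the neuron-like cells 12.90, 12.35 and 11.56. The lowest IP-like cell thus stood level with the highest AP-like cell. The IP-like mean of 13.03 ± 0.32 exceeded the AP-like mean of 11.44 ± 0.77 by 1.58, a called difference.

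At E16 the order of the classes was the opposite. E16 AP-like cells ran from 4.17 through a median of 11.39 to 13.71 for Igfbp2, with 14 of 17 over the level. E16 IP-like cells ran from 3.95 through 9.42 to 12.12, with 4 of 9 over, and the 2 neuron-like cells had 6.62 and 11.42. IP-like cells averaged 8.51 ± 3.39 against 10.77 ± 2.48 in AP-like cells, a called difference of -2.25. The cells of both classes overlapped, and no test of the difference between the stages was made.

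Between E11 and E16, IP-like cells gave the widest gap for Igfbp2. Every one of the 9 E16 IP-like cells was below every one of the 3 E11 IP-like cells, with means of 8.51 and 13.03 and a difference of -4.51. Of the 10789 genes tested, 0.982% had all E16 IP-like cells below all E11 ones, and 7.67% were called lower. The difference lay between -4.67 and -4.35 when each E11 IP-like cell was left out in turn, and it was -3.57 with average linkage in the clustering. The spiked phe RNA moved with the class as well: its log2 mean was 10.88 in E11 IP-like arrays, 9.33 in E16 IP-like and 9.55 in E11 AP-like arrays, and its part in the result was not tested. With each cell held against the phe signal of its own array, Igfbp2 was at or over it in 3 of 3 E11 IP-like and 4 of 9 E16 IP-like cells.

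In AP-like cells the Igfbp2 mean was 0.68 lower at E16 than at E11 and not called. It was 1.09 lower with the signals as deposited and 1.30 lower after scaling to the spiked lys RNA, called in both, where the median of all genes was itself 0.46 and 0.68 lower. Relative to that median the differences were -0.58 in the main values, -0.63 as deposited and -0.63 with lys. The spread between cells was wider at E16 (SD 2.48, 17 cells) than at E11 (SD 0.77, 23 cells). Over all groups the mean Igfbp2 levels ran E11 IP-like (13.03), E11 neuron-like (12.27), NICD/p18 APs (11.89), neurosphere APs (11.85), E11 AP-like (11.44), E16 AP-like (10.77), E12 APs (10.44), E16 neuron-like (9.02) and E16 IP-like cells (8.51). Among the neighbours in this order, only E11 IP-like and neuron-like cells differed by more than the larger of their SDs.

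Igfbp5, which encodes another secreted binding protein that can also attach to extracellular matrix, was over the level in 39 of 67 cells with probe set 1452114_s_at. Its values in E11 AP-like cells were far apart. In 16 of 23 cells it ran from 10.13 to 12.86 with a mean of 11.51 ± 0.78, and in the other 7 from -0.10 through a median of 2.35 to 8.81. In E16 AP-like cells 12 of 17 were over the level, from 9.97 to 13.32 with a mean of 11.33 ± 1.11, and the other 5 ran from -0.09 to 9.47. The share of AP-like cells over the level was thus 69.6% (exact 95% interval 47.1 to 86.8%) at E11 and 70.6% (44.0 to 89.7%) at E16.

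The mean of Igfbp5 in AP-like cells was 10.09 ± 2.98 at E16 and 8.90 ± 4.37 at E11, a called difference of 1.19. The medians went the other way, 10.38 at E16 and 11.07 at E11, and the call was lost with the signals as deposited (0.93), with lys scaling (0.72) and with a pseudocount of 100 (0.41). The difference in the means thus lay in the cells under the level, not in the share over it.

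No IP-like or neuron-like cell of E11 had Igfbp5 over the level: the IP-like cells had 2.94, 1.81 and 3.11 and the neuron-like cells 3.88, 4.13 and 1.28. All 6 lay below the 17 highest AP-like cells, of which the lowest had 8.81. With 0 of 3 cells over the level in each class, the exact 95% interval reaches 70.8%. At E16, 3 of 9 IP-like cells were over the level, at 11.16, 12.34 and 12.42, while the lowest was 0.16, and the 2 neuron-like cells had 1.85 and 3.05. The E16 IP-like mean of 6.23 ± 4.94 was 3.86 below the AP-like mean, a called difference that lost its call with lys scaling (-3.71), since the AP-like mean then lay under the level. The corresponding E11 differences, -6.27 for IP-like and -5.80 for neuron-like cells, are not called because the E11 AP-like mean lies under the level.

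The mean levels of Igfbp5 ran NICD/p18 APs (12.04), E12 APs (10.98), E16 AP-like (10.09), E11 AP-like (8.90), E16 IP-like (6.23), neurosphere APs (4.64), E11 neuron-like (3.10), E11 IP-like (2.62) and E16 neuron-like cells (2.45), and no neighbours differed by more than the larger of their SDs. The other Igfbp5 probe set, 1422313_a_at, was over the level in 0 cells and ordered the classes differently. It was highest in the E11 neuron-like cells, at 7.78, 8.67 and 8.55, all above the highest E11 AP-like cell at 7.09, while the first probe set was low in those 3 cells. Of all genes tested, 2.09% had every E11 neuron-like cell above every E11 AP-like cell. Directions given for Igfbp5 hold for probe set 1452114_s_at.

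Igfbp3, a further secreted binding protein, was over the level in 2 cells with 1423062_at and in 1 with 1458268_s_at, and in 0 of the 57 E11 and E16 cells. The cells over the level were a neurosphere AP at 10.93 and NICD/p18 AP replicate 1 at 10.73 with the first probe set and 10.75 with the second. The 3 neurosphere APs had 9.61, -0.0039 and 10.93 with 1423062_at, only the last over the level, and the 3 E12 APs -0.60, 1.24 and 2.86. Among the 67 cells this probe set was over the level only in 1 neurosphere AP and 1 NICD/p18 AP. The higher values there are therefore no support for a difference between the groups.

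Igfbp2 and Igfbp5 were compared in the same cells. In E11 AP-like cells 16 of 23 had both over the level and 7 only Igfbp2. In E16 AP-like cells 10 of 17 had both, 4 only Igfbp2, 2 only Igfbp5 and 1 neither. In E16 IP-like cells 2 of 9 had both, 2 only Igfbp2, 1 only Igfbp5 and 4 neither, and all 6 E11 IP-like and neuron-like cells had only Igfbp2. Over the 67 cells, 35 had both, 22 only Igfbp2, 4 only Igfbp5 and 6 neither. Irs1 and Igf1r were both over the level in 4 of 23 E11 AP-like and 6 of 17 E16 AP-like cells, and all 6 E16 AP-like cells with Igf1r over the level had Irs1 over it too.

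**Figure D3:**
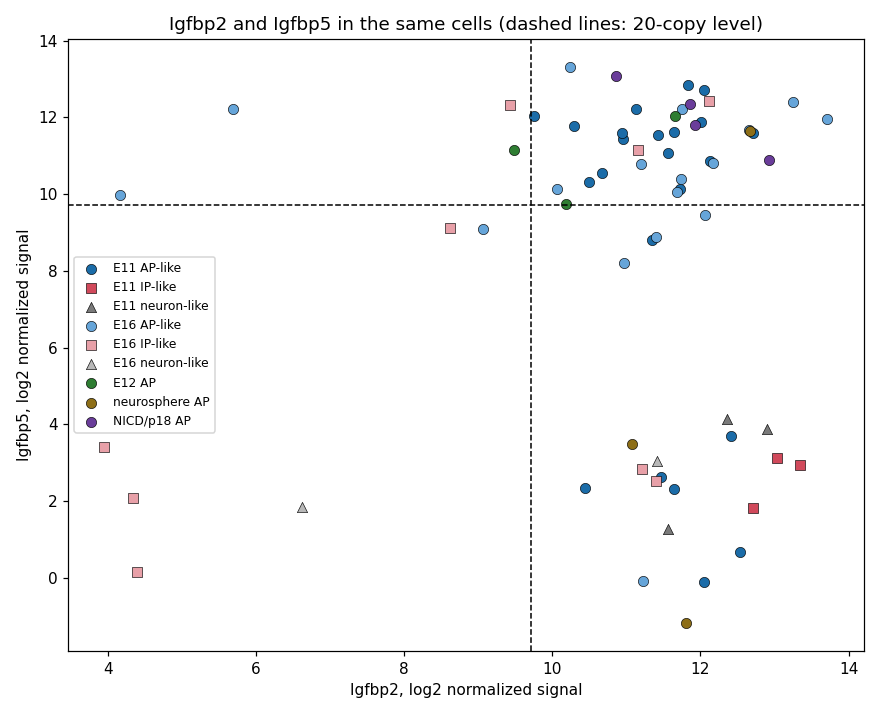
Log2 normalized signal of Igfbp2 (horizontal axis) against Igfbp5 (vertical axis) in each of 67 cells, coloured by group or class, with the 20-copy level of 9.72 as dashed lines. AP-like cells and APs lie mostly at the upper right, the 6 E11 IP-like and neuron-like cells lie at the lower right, and 4 E16 IP-like cells lie under both lines.

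The genes whose levels followed each member most closely over the 57 E11 and E16 cells were, by Spearman's rho, Grb2 (0.52), 4930402H24Rik (0.49) and Rbbp6 (0.46) for Igf1r, and Fam122b (0.48), 2810459M11Rik (0.46) and Sema4b (0.45) for Irs1. For Igfbp2 they were Rabl6 (0.53), Armcx1 (0.47) and Sulf2 (0.44), and for Igfbp5 they were 2410006H16Rik (0.52), Fgfr3 (0.52) and Sox3 (0.51). Grb2 encodes an adaptor of receptor tyrosine kinases, Fgfr3 an FGF receptor and Sox3 a transcription factor of neural progenitors. These are the highest values among 10789 genes in cells that share stage, class and array signal, and are given as a description. Within E11 AP-like cells Igf1r and Grb2 had a rho of 0.60 and within E16 AP-like cells 0.44, while Igfbp2 and Igfbp5 had -0.14 and 0.31. Grb2 was picked over cells that include these. It was over the level in 3 of 23 E11 and 3 of 17 E16 AP-like cells, at means of 6.67 and 6.79. Among the alike genes named, only 2410006H16Rik at E11, Fgfr3 at E16 and Sox3 at both stages had AP-like means over the level. The other rankings thus rest mostly on signals under it.

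The comparison of E16 with E11 asks how the system differs with developmental age. Over AP-like cells, Irs1 and Igfbp5 were called higher at E16 among the 8 members with a probe set past the filter, where 2.22% of all genes were called higher, and 0 members were called lower, where 4.33% were. Irs1 was 1.89 higher at E16 on the log2 scale, 1.61 with the signals as deposited and 1.40 with lys scaling, called in all of these, and 0.87 by the median over cells, not called. Over all classed cells of each stage, Irs1 was 1.35 higher (background 1.51%) and Igfbp2 1.78 lower (background 2.43%). The Irs1 call was lost with lys scaling (1.05), with a pseudocount of 100 (0.78) and by the median over cells (0.85), and the Igfbp2 call by the median (-0.44). These pools hold unequal shares of IP-like cells, 3 of 29 at E11 and 9 of 28 at E16, and the part of that mix in them was not tested.

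Of 51 further genes of the pathway, 35 had a probe set past the filter. Between E16 and E11 AP-like cells 1 of the 35 was called lower and 1 higher. The one called lower was Grb10, an imprinted adaptor that binds the insulin and IGF1 receptors and dampens their signal: its mean was 12.23 ± 0.52 with 23 of 23 E11 cells over the level and 10.84 ± 1.93 with 15 of 17 E16 cells over it, a difference of -1.39. The one called higher was Rheb, the GTPase that activates mTOR complex 1, at 11.03 ± 2.05 (20 of 23 over) at E11 and 12.20 ± 0.80 (17 of 17) at E16. The median difference over the 35 genes was 0.28 and that over all genes -0.10.

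Comparing IP-like with AP-like cells asks what differs with commitment. At E11, 1 of 8 members was called higher, Igfbp2, where 6.34% of all genes were, and 0 lower, where 4.65% were. Igfbp5 and Irs1 were called lower with a pseudocount of 100 (-3.46 and -1.77) and by the median over cells (-8.12 and -8.06). Of the 35 pathway genes 3 were called higher, Cdkn1c (8.62), Ptpn1 (2.95) and Gsk3b (2.86), and 3 lower, Mest (-5.05), Grb10 (-2.82) and Plagl1 (-1.01), all as log2 differences. Cdkn1c is an imprinted inhibitor of cyclin-dependent kinases and was over the level in 2 of 3 IP-like and 1 of 23 AP-like cells. Ptpn1, a phosphatase that acts on the insulin receptor, was over it in 3 of 3 and 4 of 23. The median difference was -0.21 over the 35 genes and -0.16 over all genes.

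At E16, 0 of 8 members were called higher in IP-like than in AP-like cells, where 2.99% of all genes were, and 3 lower, Igfbp5 (-3.86), Igfbp2 (-2.25) and Irs1 (-2.12), where 3.11% were. The Irs1 difference was -0.40 by the median over cells and then not called, and Igfbp2 and Igfbp5 kept their calls by the median. Of the 35 pathway genes 0 were called higher and 3 lower: Mest (-2.59), Plagl1 (-1.74) and Rheb (-1.05). Mest and Plagl1, imprinted genes that encode a hydrolase-like protein and a zinc-finger transcription factor, were thus called lower in IP-like cells at both stages. Plagl1 was over the level in all 23 E11 and all 17 E16 AP-like cells, in 3 of 3 E11 IP-like cells (12.12 ± 1.44) and in 7 of 9 E16 IP-like cells. Its E11 difference barely reached the size for a call.

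Between E16 and E11 IP-like cells, 0 members were called higher, against 3.74% of all genes, and 1 lower, Igfbp2, against 7.67%. Of the pathway genes Gab1 (4.38), Akt2 (3.39) and Grb10 (1.31) were called higher at E16 and Cdkn1c (-7.57), Gsk3b (-3.35) and Ptpn1 (-1.25) lower. Gab1 is a docking protein beside the IRS adaptors and was over the level in 7 of 9 E16 and 0 of 3 E11 IP-like cells. These differences use the same 3 E11 IP-like cells as the E11 comparison and are not independent of it.

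In E11 neuron-like against AP-like cells 0 members were called, where 6.56% of all genes were higher and 7.28% lower. Leaving out the neuron-like cell 43D called Igfbp2 (1.19) and Igf1r (3.01) higher, and leaving out cell 30F called Irs1 (2.58) higher. Igfbp5 was called lower with a pseudocount of 100 (-3.40) and by the median over cells (-7.19), Igf1r higher by the median (1.99), and Igfbp2 (1.46) and Igf1r (3.47) higher with average linkage. Of the pathway genes Plagl1 (-9.35), Akt1 (-3.59), Grb10 (-3.52) and Mest (-3.35) were called lower and Meg3 (3.38), an imprinted noncoding RNA, and Ptpn1 (2.96) higher. Plagl1 was over the level in 0 of 3 neuron-like cells at a mean of 3.77 ± 3.98, against 13.13 ± 0.35 in AP-like cells.

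**Figure D4:**
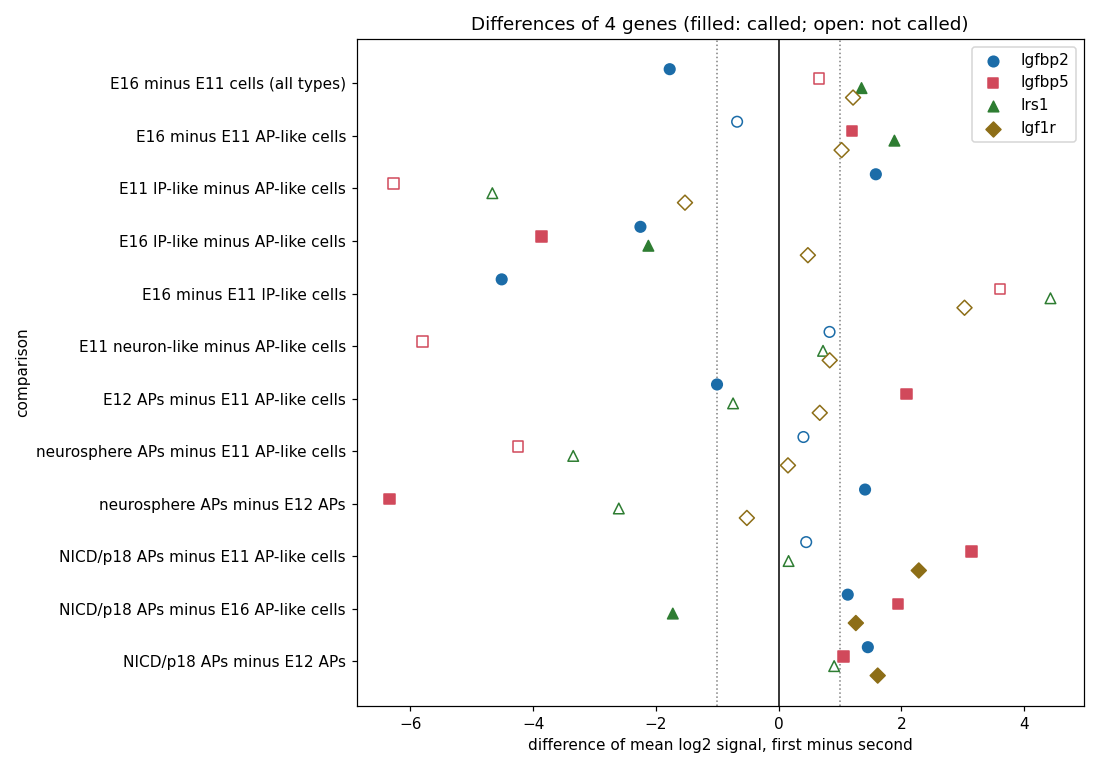
Differences of mean log2 signal (horizontal axis, first group minus second) of Igfbp2, Igfbp5, Irs1 and Igf1r in 12 comparisons (vertical axis), filled where called and open where not, with dotted lines at -1 and 1. Igfbp2 lies at 1.58 for E11 IP-like minus AP-like cells and at -2.25 for the same comparison at E16, and Igfbp5 lies right of 1 in all 3 NICD/p18 comparisons.

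E12 APs extend the series between the stages. For Igfbp5 the 3 cells had 11.16, 9.76 and 12.03, all over the level, and a mean 2.09 above E11 AP-like cells. Held against the phe signal of the own array, Igfbp5 was at or over it in 2 of the 3. For Igfbp2 the cells had 9.48, 10.18 and 11.65, a mean 1.00 below E11 AP-like cells. Both were called, 1 of 8 members higher against 7.19% of all genes and 1 lower against 1.89%. The Igfbp5 call was lost by the median over cells (0.098) and with a pseudocount of 100 (0.87). The Igfbp2 call was lost without replicate 1 (-0.53) or replicate 2 (-0.88), and with the signals as deposited the difference was 0.45 in the other direction, where the median of all genes was 1.79. Irs1 had 9.48, 8.98 and 6.69, all under the level, and Igf1r 4.80, 9.16 and 10.60, with 1 over it. Without replicate 1, which had the lowest Igf1r, that gene was called higher than in E11 AP-like cells (2.36). Of the pathway genes Eif4ebp1 (3.59), Ptpn1 (2.18), Sh2b1 (1.09) and Igfbp4 (1.06) were called higher and Mest (-2.23) lower. Eif4ebp1 encodes a translation repressor that mTOR inactivates, and Igfbp4 another binding protein.

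Neurosphere APs are E11 cells after 3 days of culture in FGF2 and EGF, so culture and the added days cannot be told apart. For Igfbp2 the 3 cells had 12.66, 11.81 and 11.07, all over the level, and for Igfbp5 they had 11.64, -1.18 and 3.48, with 1 over it. Irs1 had 4.07, 3.54 and 9.73 and Igf1r 8.47, 9.61 and 4.93. The cell high for Igfbp5 was thus 1 of 3, while all 3 were high for Igfbp2. Against E11 AP-like cells 0 of 8 members were called, where 7.05% of all genes were higher and 3.04% lower. Igfbp5 was at -4.25 and Irs1 at -3.35, uncalled because both means lay under the level, and both were called lower with a pseudocount of 100 (-1.82 and -2.07) and by the median over cells (-7.59 and -6.08). With the signals as deposited 2 members were called higher, among them Igfbp2 (1.84), where the median of all genes was 1.82. Against E12 APs, Igfbp2 was called higher (1.41, background 5.67%) and Igfbp5 lower (-6.34, background 7.16%). The Igfbp2 call was lost without neurosphere replicate 1 (0.9997) or E12 replicate 1 (0.93), Igf1r was called lower without E12 replicate 1 (-2.21), and the Igfbp5 difference ran from -9.84 to -3.42 without each cell in turn.

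Of the pathway genes, Mest (2.84), Igfbp4 (2.73) and Mtor (2.02) were called higher in neurosphere APs than in E11 AP-like cells, and Plagl1 (-6.60) and Grb10 (-1.32) lower. Igfbp4 averaged 11.68 ± 0.72 with 3 of 3 cells over the level, against 8.95 ± 3.33 with 13 of 23. Mest averaged 13.36 ± 0.23, above its mean in every other group, and Plagl1 averaged 6.52 ± 4.60 with 1 of 3 over the level. Mtor encodes the kinase at the core of the growth pathway downstream of AKT. The same directions were called against E12 APs for all 5.

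NICD/p18 APs are APs given held-on Notch activity and a cell-cycle block. They were taken at E14, and no E14 cells without these plasmids are among the arrays. Age and electroporation thus cannot be told apart from NICD and p18 in the differences below. For Igfbp5 the 4 cells had 11.82, 12.34, 10.90 and 13.08, all over the level, and for Igfbp2 they had 11.93, 11.86, 12.92 and 10.86, all over it too. Igf1r had 7.91, 8.66, 10.53 and 12.10 with 2 over, and Irs1 12.68, 8.56, 11.85 and 4.06 with 2 over. Both binding proteins were thus over the level in every NICD/p18 AP, while the receptor and the adaptor differed widely between the 4 cells. Held against the phe signal of the own array, however, Igfbp2 and Igfbp5 were each at or over it in only 2 of the 4. Against E11 AP-like cells Igfbp5 (3.14) and Igf1r (2.28) were called higher, 2 of 8 members where 5.84% of all genes were higher, and 0 were called lower, where 6.31% were. The NICD/p18 values of Igfbp5 lay within the range of the 16 E11 AP-like cells over the level apart from the highest, 13.08, which exceeded their highest value of 12.86.

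Against E16 AP-like cells Igfbp5 (1.95), Igf1r (1.26) and Igfbp2 (1.13) were called higher (background 6.03%) and Irs1 (-1.72) lower (background 4.03%). Against E12 APs Igf1r (1.61), Igfbp2 (1.45) and Igfbp5 (1.05) were called higher (background 5.14%) and 0 members lower (background 10.5%). These comparisons share the same 4 cells. Without replicate 4, which had the lowest Irs1 and the highest Igf1r, the Irs1 difference from E16 AP-like cells was 0.017, Irs1 was called higher than in E11 AP-like (1.90) and E12 cells (2.65), and Igf1r was not called against E11 AP-like (1.52), E16 AP-like (0.49) or E12 cells (0.85). Without replicate 3 Igf1r was likewise not called, at 2.04, 1.02 and 1.37, and Igfbp2 was not called against E16 AP-like cells (0.78). The Igfbp5 calls against E11 and E16 AP-like cells held without each NICD/p18 cell in turn, and that against E12 APs was lost without replicate 2 (0.95), without replicate 4 (0.71) and without E12 replicate 2 (0.44). Without E12 replicate 1 the calls of Igfbp2 (0.97) and Igf1r (-0.077) against E12 APs were lost. With lys scaling 0 of the 8 members were called against E12 APs, and Igf1r was called against neither E11 (1.503) nor E16 AP-like cells (1.41). By the median over cells Igf1r was called in none of the 3 comparisons either, and Igfbp2 (0.50) and Irs1 (-0.82) were not called against E16 AP-like cells nor Igfbp5 (0.92) against E12 APs. Of the other 4 Igf1r probe sets, 1428967_at (2.65), 1426565_at (2.14) and 1446303_at (1.38) were also higher on average in NICD/p18 APs than in E11 AP-like cells, with both means under the level, and 1452108_at was not (-0.10).

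Other signals moved with the NICD/p18 arrays. The spiked phe RNA had a log2 mean of 11.41 in them and 9.55 in E11 AP-like arrays, a difference of 1.86 for an RNA added in equal amount, and against the phe signal of the own array Igfbp2 and Igfbp5 were each at or over it in 2 of 4 cells. Neuron markers over the level numbered 3, 9, 9 and 1 of 15 in replicates 1 to 4, with summed signals from 3300 to 54174. Replicates 2 and 3 had 32219 and 54174, against 1272 to 12556 in E11 AP-like and 43274 to 58447 in E11 neuron-like cells. In the study's own principal component analysis, 2 of the 4 NICD/p18 cells lay near the E14 IPs. Pdgfrb, a marker of pericytes and mesenchyme, was over the level in 3 of 4 NICD/p18 APs, in 0 of 23 E11 and in 1 of 17 E16 AP-like cells, and Cldn5, a vessel marker, in 1 of the 4. The part of these signals in the result was not tested. Without replicates 2 and 3, which had 9 neuron markers each, a comparison chosen after seeing the data, Igfbp5 was 3.56 and Igf1r 2.49 above E11 AP-like cells and 2.36 and 1.47 above E16 AP-like cells, called in each, while Igfbp2 (0.63 against E16 AP-like and 0.96 against E12 cells) was not called.

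Of the introduced genes, Cdkn2c ran from 5.84 to 8.87 in the 4 cells, with 0 over the level, and from 4.76 to 10.78 in E11 AP-like cells, with 5 of 23 over. Notch1 ran from 9.20 to 10.64 with 2 of 4 over. Where these probe sets lie relative to the inserts is not given in the sources used here, so the values do not check the label. Hes5, a target of Notch, was over the level in 3 of 4 NICD/p18 APs, 7 of 23 E11 AP-like cells, 7 of 17 E16 AP-like cells and 1 of 3 E12 APs. Neurosphere APs, which carry no NICD plasmid, had 2 of 3 over and a mean of 11.03, against 11.02 in NICD/p18 APs.

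Igf2, Insr and Igfbp3 had means of 6.82 ± 2.91, 7.29 ± 3.81 and 5.21 ± 3.87 in the 4 NICD/p18 APs and of 3.38 ± 1.48, 3.09 ± 2.50 and 2.14 ± 1.00 in E11 AP-like cells, all under the level. Igf2 and the Igfbp3 probe set 1458268_s_at passed the filter only through a NICD/p18 cell, so their higher values there are no support for a shift of the system. Of the pathway genes, Gab1 (3.28) and Mtor (1.00) were called higher than in E11 AP-like cells and Mest (-2.31) lower. Gab1 had 3 of 4 cells over the level against 6 of 23.

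**Figure D5:**
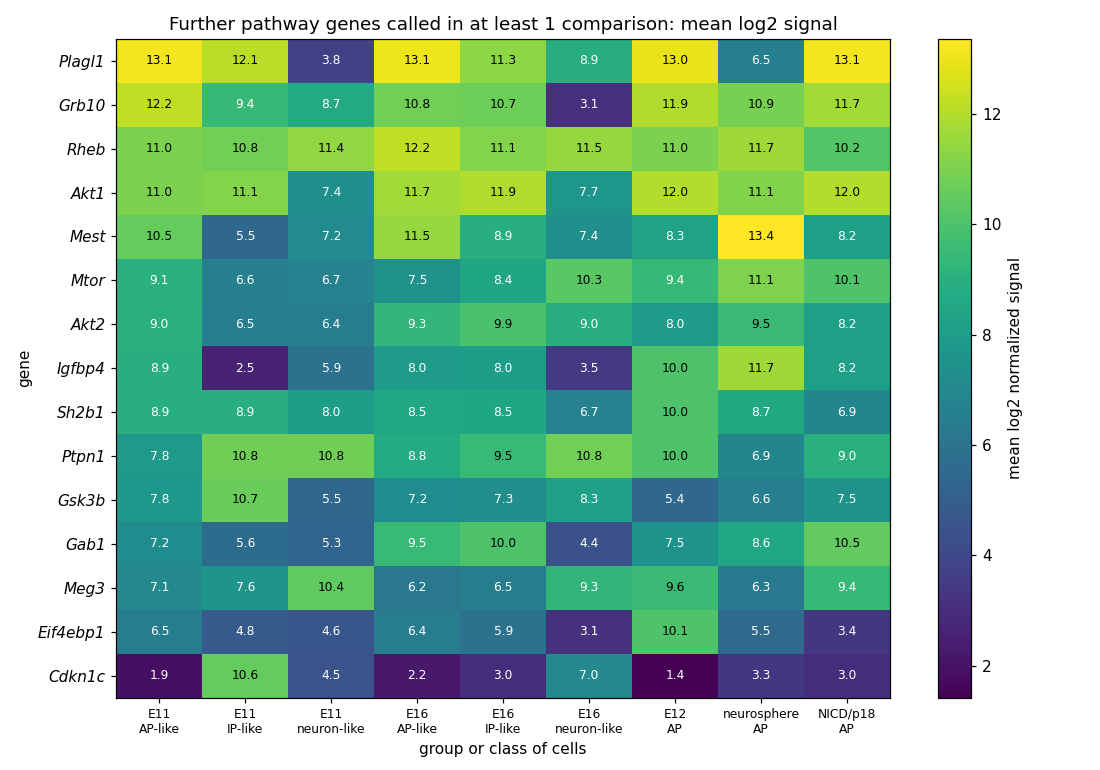
Mean log2 normalized signal (colour and printed value) in each group or class (columns) of the 15 further pathway genes (rows) called in at least 1 comparison, ordered by their mean in E11 AP-like cells. Plagl1 is at 13.13 in E11 AP-like and 3.77 in E11 neuron-like cells, and Mest reaches its highest mean, 13.36, in neurosphere APs.

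Among the further pathway genes, 6 of the 51 were over the level in at least as many cells as not: Akt1 (62 of 67), Rheb (60), Plagl1 (59), Grb10 (57), Mest (46) and Igfbp4 (34). Akt1, the kinase that PI3 kinase activates, averaged 11.01 ± 0.93 in E11 AP-like, 11.72 ± 0.68 in E16 AP-like and 11.93 ± 0.47 in E16 IP-like cells, differences within the spread between cells. It was lower in the neuron-like cells, at 7.42 ± 4.68 with 1 of 3 over at E11 and 7.70 ± 4.88 with 1 of 2 over at E16. The number of members over the level in a cell, among the 9, had a median of 3 in AP-like cells of both stages. It was 1 in E11 IP-like, 2 in E16 IP-like, 2 in E11 neuron-like and 1.5 in E16 neuron-like cells. In E12 APs and neurosphere APs it was 2, and in NICD/p18 APs 4. The NICD/p18 count includes Igf2 and Igfbp3, whose probe sets used for the count passed the filter only through a NICD/p18 cell. The phe signal was also higher in those arrays, so the count is no support for a shift of the system.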

How the data were processed

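The measurements are single-cell cDNAs on Affymetrix expression arrays covering the mouse genome, 1 cell each. The values deposited by the authors are MAS5 intensities on a linear scale, as named in the submitters' processing notes. The study's methods also name quantile normalization, which the deposited values do not show. All 68 arrays were quantile normalized together and log2 transformed with no offset. Software was scipy 1.17.1, numpy 2.4.6, matplotlib 3.10.9 and pandas 2.3.3 under Python 3.11.15. Columns of other samples numbered 0. Of 45101 probe sets, 34958 have 1 gene symbol in the platform annotation, 932 several, and 9211 are not listed there.

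Each gene stood for by several probe sets was read from that of greatest mean signal, taken among those with at least 1 cell over the 20-copy level. That the filter came first was settled after the values were seen and bears only on Insr among the members: its probe set 1450225_at had a higher mean and 0 cells over the level. Named are all probe sets of the members, up to 4 called pathway genes for a comparison with the largest differences (where more were called, the others were added after their values were seen), and the 3 genes most alike each member that was over the level in at least 20 cells. Pathway levels given beyond these, among them Akt1, Grb10, Gab1 and Mest by class, were chosen after their values were seen. E11 and E16 cells were clustered by complete linkage on correlation distance over marker probe sets (43 at E11, 40 at E16) into 3 clusters per stage. The number of clusters was chosen after the trees, and the study's figure of its own trees, had been looked at.

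The members and lists were chosen with earlier results of these data known, and the gene pairs, the 4 members carried through the alternatives and the promoter motifs after values were seen. Groups are 1 sample each, so no p-value was computed. With arrays, the number of cells limits the precision. Of 2278 pairs of arrays 0 were identical. The difference of means was tried on simulated, normally distributed data with groups of 23 and 17 cells, shifting only probe sets with high means. That setting covers neither the smaller groups nor values as far apart between cells as those of Igfbp5, so it does not check those results. Alternatives were the signals as deposited, scaling to the lys spike, a pseudocount of 100, the median over cells, other probe sets, average linkage, the left-out E11 cell kept, each cell of a small group left out, the phe signal of each array as its level, and no filter.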

Additional observations from a re-analysis of the deposited data

How the results depend on the processing

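Igfbp2, Igfbp5, Irs1 and Igf1r gave 22 called differences out of 48 in 12 comparisons. Of all genes, 3.94% to 15.7% were called per comparison. The 4 members were carried through after values were seen and the comparisons share cells, so this count is a description only. The same calls numbered 18 with the signals as deposited, 13 with lys scaling, 16 with a pseudocount of 100, 10 by the median over cells and 22 with average linkage or with the left-out E11 cell kept, and 0 turned into the opposite call. Calls absent from the main values numbered 7 as deposited, 1 with lys scaling, 7 with the pseudocount, 9 by the median, 2 with average linkage and 0 with that cell kept. With the signals as deposited, the genes called numbered 3096 (980 in the main values) for E12 against E11, 2880 (1089) and 2614 (1384) for neurosphere against E11 and E12, and 2456 (1311), 2521 (1086) and 3033 (1692) for NICD/p18 against E11, E16 and E12, and Igfbp2 for E12 against E11 (0.45) and Irs1 for NICD/p18 against E16 (0.25) changed sign. By the median over cells 744 (425) genes were called between all E16 and E11 cells and 1071 (659) between E16 IP-like and AP-like cells, and Igfbp5 in E16 against E11 AP-like cells was -0.68. Average linkage called 2679 (1493) genes in E11 neuron-like against AP-like cells. Igfbp5 by probe set 1422313_a_at was -0.075 for E16 against E11 AP-like cells, 0.64 for E16 IP-like against AP-like cells, 0.37 for neurosphere against E12 APs and -0.24, -0.16 and -0.32 for NICD/p18 against E11, E16 and E12. Igf1r by 1452108_at was -0.10, -0.14 and -0.18 for NICD/p18 against E11, E16 and E12, while the other 3 probe sets ran from 1.21 to 3.12 over these comparisons. With each cell left out in turn, Irs1 for NICD/p18 against E16 ran from -2.86 to 0.017 and Igf1r for NICD/p18 against E12 from -0.077 to 2.82. The cause of these shifts was not tested. Of called genes, the percentage higher was 33.9 in the main values, 17.5 as deposited and 11.3 with lys for E16 against E11 AP-like cells, 38.4, 22.3 and 14.6 for all E16 against E11 cells, 57.7, 42.2 and 37.7 for E11 IP-like and 47.4, 22.7 and 21.6 for E11 neuron-like against AP-like cells, 79.2, 98.7 and 86.4 for E12 against E11, 69.9, 97.3 and 86.5 for neurosphere against E11, 44.2, 45.7 and 56.3 for neurosphere against E12, and 48.1, 84.8 and 32.9, 59.9, 94.4 and 64.8, and 32.8, 33.6 and 16.5 for NICD/p18 against E11, E16 and E12. No paired analysis was possible because the labels pair no cells and no test was made. Groups of 2 to 4 cells limit most comparisons, and with no embryo named the spread between animals is unknown.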
